A study of Mus musculus with 2 samples.

Results

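Arterial endothelial cells of limb muscle were picked out of a single-cell RNA survey of mouse muscle, in which 276 of 10891 cells that passed the filter (at least 500 genes detected and at most 10% of UMIs, the counted RNA molecules, from mitochondrial genes) met the rule for arterial identity. A cell had to hold at least 2 of the endothelial genes Pecam1, Cdh5, Flt1 and Ptprb, no UMI of the lymphatic factor Prox1, and fewer than 2 UMIs each of the leukocyte gene Ptprc and the stromal gene Pdgfra. It then had to hold at least 2 of 5 arterial genes (Sema3g, Gja5, Bmx, Stmn2, Cytl1), and more of these than of 5 capillary genes (Gpihbp1, Timp4, Rgcc, Cd36, Kdr) or of 5 venous genes (Selp, Lrg1, Ackr1, Plvap, Olr1). Arterial endothelium lines the vessels that carry blood from the heart under high pressure and shear. Its identity is set in development by VEGF and Notch signalling acting through SOXF, Hey and related transcription factors, and it is known for gap junctions made of connexins 37 and 40, for a contact with elastic matrix and smooth muscle, and for release of vasoactive mediators that set the calibre of the vessel.

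The survey held 2 droplet libraries of live-sorted mononuclear cells from limb muscle of aged C57BL/6 mice, 1 from mice given the vehicle DMSO by intraperitoneal injection and 1 from mice given the small-molecule drug Maraviroc (MVC) by the same route, in a short-term regime with an injection every other day. Cells had been freed with collagenase II and dispase and dead cells sorted out with a viability dye, and all of this was shared by both groups. The number of mice behind each library and whether animals were pooled were not given in the sources used here, and the labels carry neither age, sex nor dose. With 1 library per group no test between DMSO and MVC was possible, the treatment and the library cannot be told apart, and every interval below covers counting error in UMIs or cells only and takes no account of differences between cells or mice.

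The DMSO library held 146 arterial cells among 5437 kept cells and the MVC library 130 among 5454. Their median depth was close, 6664 UMIs per cell (1019 to 16329) in DMSO and 6401 (1379 to 20730) in MVC, and together they gave 981315 and 936015 UMIs. A doublet caller marked 3 of the DMSO arterial cells (2.05%) and 5 of the MVC arterial cells (3.85%), against 4.34% and 4.36% of all kept cells. Among the kept cells 8 barcodes occurred in both libraries and 0 of them belonged to an arterial cell. Barcodes that failed the filter but met the rule numbered 1 in DMSO and 3 in MVC. Capillary cells chosen by the mirror-image rule numbered 1882 and 1623, and venous cells 176 and 134, and these were the comparison classes.

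The number of arterial genes in a cell spread over the whole scale. In DMSO 20 cells held 2 of the 5 genes, 46 held 3, 55 held 4 and 25 held 5, and in MVC the numbers were 20, 44, 39 and 27. Just inside the threshold were therefore 20 cells per library. Just outside it were 26 DMSO and 33 MVC endothelial cells with at least 2 arterial genes that tied with another class, 4 and 7 cells with 1 arterial gene as the highest count, and 114 and 126 cells with at least 2 arterial genes but more capillary or venous ones. Depth moved with the count, from a median of 5184.5 UMIs in DMSO cells with 2 arterial genes to 8439 in those with all 5, and from 5115.5 to 9255 in MVC.

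The genes of the rule are given as a description only, since they chose the cells. Levels here and below are given as CPM, the UMIs of a gene per 1000000 UMIs when all cells of a class in 1 library are added up. Cytl1, a secreted cytokine-like protein, stood at 1567 in DMSO and 944 in MVC arterial cells. Stmn2, a microtubule-destabilising stathmin, stood at 308 and 456. Sema3g, a secreted semaphorin, was at 365 and 347, the connexin 40 gene Gja5 at 179 and 130, and the kinase gene Bmx at 206 and 170. Ackr1 and Olr1 of the venous list were at 0 in both libraries, and Gpihbp1, the anchor of lipoprotein lipase on capillaries, was at 6.11 and 6.41. Cd36, a fatty acid receptor, still reached 699 in DMSO and 358 in MVC arterial cells, and Selp, the P-selectin of venous endothelium, 291 and 550. Lrg1 had 38 UMIs in the DMSO arterial cells and 1 in MVC.

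Genes that take no part in the rule carried the arterial label only in part. Of 10 arterial genes outside the rule, 9 reached the minimum of 50 UMIs in the arterial cells, and 4 of the 9 (Gja4, Fbln5, Jag1 and Alpl) were at least 2-fold higher than in capillary and in venous cells of both libraries. The same held for 3.19% of all genes read. Gja4, which encodes connexin 37, stood at 176 in DMSO and 200 in MVC arterial cells, against 13.9 and 13 in capillary and 1.40 and 5.88 in venous cells. Fbln5, a fibulin needed to assemble elastic fibres, stood at 356 and 278, against 52.5 and 41.9 in capillary and 48.4 and 47.0 in venous cells. The Notch ligand Jag1 was at 119 and 167 (capillary 38.1 and 46.7, venous 52.0 and 62.7), and Alpl, tissue-nonspecific alkaline phosphatase, at 185 and 276 (capillary 30.8 and 99.1, venous 0 and 4.90).

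Other classical arterial genes set arterial apart from venous cells but not, by 2-fold, from capillary cells. Efnb2, the ephrin that marks arteries in the embryo, stood at 320 and 315 in arterial, 245 and 253 in capillary, and 40.0 and 53.9 in venous cells. The Notch ligand Dll4 was at 69.3 and 83.3 in arterial, 119 and 76.5 in capillary, and 2.81 and 5.88 in venous cells. Sox17, a SOXF factor, was at 186 and 266 against 314 and 243 in capillary and 79.3 and 75.5 in venous cells, and the Notch target Hey1 at 32.6 and 64.1 against 46.6 and 40.5 and against 1.40 and 2.94. Mecom differed little between the classes, at 1954 and 1914 in arterial, 2190 and 1641 in capillary and 1333 and 1143 in venous cells. Unc5b stayed under 50 UMIs. The venous factor Nr2f2 had 0 UMIs in DMSO arterial cells and 18 UMIs in 6 of the MVC cells, against 253 and 223 CPM in venous cells. It did not stand for its list. The 6 venous genes outside the rule summed to 4447 and 4542 CPM in arterial cells, above 3462 and 3983 in venous cells.

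Across the 4915 genes outside the rule with at least 50 UMIs in the arterial cells, 157 (3.19%) were at least 2-fold higher and 41 (0.834%) at least 2-fold lower than in capillary and venous cells in both libraries, on the scale of log2(CPM + 10). The cells were sorted by the expression of the same cells, so these counts describe the class and test nothing. Ranked by the smallest of the 4 differences that each gene has (against 2 classes in 2 libraries), the first 15 were Efna5, Igf2, Mgp, Gkn3, Arhgap44, Dkk2, Nebl, Atp2a3, Gja4, Pthlh, Slc8a1, Tnfaip2, Zbtb7c, Chrm3 and Fn1.

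Efna5, a membrane-anchored ephrin ligand of Eph receptors, stood at 525 in DMSO and 662 in MVC arterial cells, against 9.17 and 18.1 in capillary and 14 and 20.6 in venous cells. The growth factor Igf2 stood at 510 and 728, against 15.9 and 27.3 in capillary and 4.21 and 12.7 in venous cells. Gkn3, a gastrokine, was at 97.8 and 140 in arterial cells and at or under 1.40 in both other classes of both libraries. Dkk2, a secreted modulator of Wnt signalling, was at 77.4 and 132 with at most 3.39 elsewhere, and Pthlh, the parathyroid hormone-like peptide known as a vasodilator, at 94.8 and 137 with at most 4.21 elsewhere. All 5 of these were low in both other classes in each library, and none differed between DMSO and MVC arterial cells by 2-fold.

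Of 22 genes read from the vasoactive and shear list, 5 (Edn1, Ace, Kcnn3, Kcnn4 and Kcnj2) were at least 2-fold higher than in both other classes, beside 3.19% of all genes, and the median of the smallest log2 difference was -0.36. Chrm3, the muscarinic receptor through which acetylcholine makes endothelium release nitric oxide, stood at 322 and 549 in arterial, 20.2 and 36.4 in capillary and 48.4 and 61.7 in venous cells. The sodium-calcium exchanger Slc8a1 stood at 223 and 377 against 25.2 and 47.8 and against 18.3 and 4.90, and Atp2a3, the SERCA3 calcium pump, at 168 and 226 against 11.8 and 19.0 and against 0.702 and 0.980. The calcium-activated potassium channel gene Kcnn4, a channel of endothelium-dependent hyperpolarisation, was at 77.4 and 83.3 in arterial cells and at or under 6.86 elsewhere, and its relative Kcnn3 at 37.7 and 63.0 with at most 10.0 elsewhere. Edn1, which encodes the vasoconstrictor endothelin 1, stood at 387 and 504 against 73.0 and 79.5 in capillary and 44.2 and 47.0 in venous cells. Nos3, the endothelial nitric oxide synthase, was at 447 and 321 against 162 and 172 and against 169 and 163, and Ace, the angiotensin-converting enzyme, at 283 and 202 against 55.2 and 39.7 and against 89.2 and 81.4.

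Mgp, matrix Gla protein, which restrains calcification of the vessel wall, reached 8239 in DMSO and 5357 in MVC arterial cells, against 569 and 213 in capillary and 391 and 454 in venous cells. Fibronectin Fn1 stood at 704 and 833 (capillary 98.4 and 141, venous 11.9 and 38.2), Ltbp4, a latent TGF-beta binding protein of elastic fibres, at 794 and 708 (capillary 99.8 and 190, venous 279 and 263), and Eln, elastin itself, at 480 and 193 (capillary 27.4 and 50, venous 98.3 and 135). Of 24 genes read in a list of matrix and elastic fibre genes, 5 were 2-fold higher and 2 were 2-fold lower than in both other classes, beside the 3.19% and 0.834% of all genes read. Eln itself missed that mark through the MVC library, where arterial cells stood at 193 and venous cells at 135. The 5 were Fbln5, Ltbp4, Mgp, Col8a1 and Col18a1, and the 2 were Nid1 and Hspg2, which encode the basement membrane proteins nidogen 1 and perlecan.

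**Figure D1:**
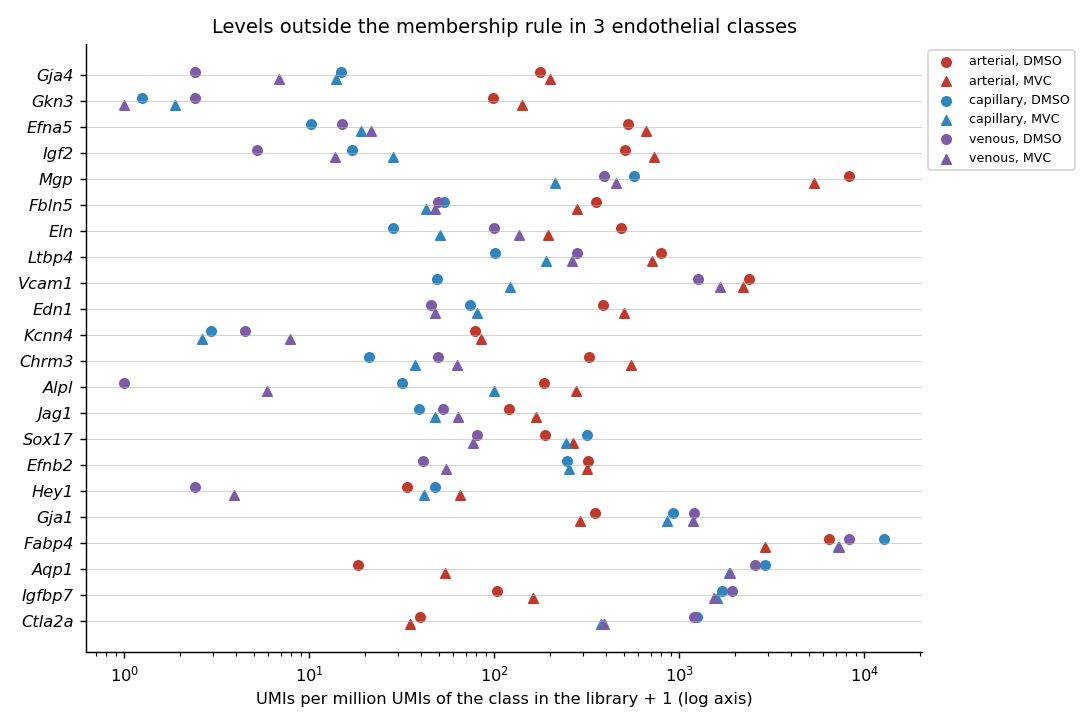
Levels of 22 genes outside the membership rule, as CPM plus 1 on a log axis, in arterial (red), capillary (blue) and venous (violet) cells of the DMSO (circles) and MVC (triangles) library. Arterial cells stood apart for Gja4, Gkn3, Efna5, Igf2 and Mgp. They overlapped with capillary cells for Sox17 and Hey1, lay less than 2-fold above them for Efnb2, and were lowest for Aqp1, Igfbp7 and Ctla2a.

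The 250 bases upstream of the start site are shown for 4 of these genes, a connexin, 2 vasoactive peptides and an elastic fibre protein, as examples of promoters of genes that were high in the same cells (RefSeq, GRCm38.p6, 5' to 3' on the strand of the gene). Capitals mark, on either strand, the short core of 1 of 5 factor families. For the Notch effector RBPJ the core searched was TGGGAA. For SOX factors, which include the arterial factor Sox17, the core searched was ACAAT. For ETS factors, which endothelial genes commonly use, the core was CCGGAA. For AP-1, the dimer of Fos and Jun proteins, the core was TGACTCA. For GATA factors the core was AGATAA.
Gja4, chr4:127314040-127314289, minus strand: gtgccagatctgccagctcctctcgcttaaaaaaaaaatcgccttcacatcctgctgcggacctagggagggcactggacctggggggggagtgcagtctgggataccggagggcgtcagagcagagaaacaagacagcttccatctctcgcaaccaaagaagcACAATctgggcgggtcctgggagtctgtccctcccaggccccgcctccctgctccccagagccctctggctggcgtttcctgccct
Edn1, chr13:42301226-42301475, plus strand: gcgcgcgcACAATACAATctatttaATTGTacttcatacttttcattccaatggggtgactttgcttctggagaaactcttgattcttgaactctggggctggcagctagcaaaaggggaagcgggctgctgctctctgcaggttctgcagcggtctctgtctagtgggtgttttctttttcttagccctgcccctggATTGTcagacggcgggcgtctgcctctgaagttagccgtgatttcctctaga
Pthlh, chr6:147264014-147264263, minus strand: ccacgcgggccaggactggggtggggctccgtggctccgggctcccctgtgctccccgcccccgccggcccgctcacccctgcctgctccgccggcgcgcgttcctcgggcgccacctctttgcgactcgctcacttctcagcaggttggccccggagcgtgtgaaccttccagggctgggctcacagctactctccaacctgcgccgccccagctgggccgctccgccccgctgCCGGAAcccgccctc
Fbln5, chr12:101819120-101819369, minus strand: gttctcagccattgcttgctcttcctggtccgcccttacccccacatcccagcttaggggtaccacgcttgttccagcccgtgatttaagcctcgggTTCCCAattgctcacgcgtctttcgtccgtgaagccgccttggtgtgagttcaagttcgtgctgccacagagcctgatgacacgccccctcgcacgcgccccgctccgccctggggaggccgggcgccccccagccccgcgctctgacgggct
The connexin and endothelin promoters held SOX letters, at 1 and 4 places, the Pthlh promoter held the ETS letters at 1 place, and the Fbln5 promoter shown held the RBPJ letters at 1 place. A second Fbln5 start, with the window chr12:101818485-101818734, held 0 of the 5 cores. Promoters were found for 124 of the 157 arterial-high genes, 185 promoters in all. SOX letters stood in 18.9% of these 185, in 18.1% of the 5167 promoters of all genes read and in 27.7% of the 32851 promoters of the whole table. For the RBPJ letters the shares were 18.9%, 18.8% and 21.6%, and for the GATA letters 4.32%, 4.99% and 9.99%. ETS letters stood in 9.73% of the arterial-high promoters against 20.1% of those of all genes read and 12.03% of all, and AP-1 letters in 7.03% (13 promoters) against 3.43% and 4.46%. Letters shared by promoters describe these windows only, and none of the shares was tested.

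Genes that arterial cells held at lower levels than both other classes included several of exchange vessels. Aqp1, the water channel of capillaries and veins, stood at 17.3 in DMSO and 53.4 in MVC arterial cells, against 2885 and 1851 in capillary and 2555 and 1885 in venous cells. An Aqp1 UMI was found in 7 of 146 DMSO arterial cells (4.79%, exact 95% interval 1.95 to 9.63) and in 6 of 102 B cells (5.88%, median 5474 UMIs), a type that should lack it. In MVC 20 of 130 arterial cells (15.4%) and 4 of 39 B cells (10.3%, median 8231 UMIs) held one, so that Aqp1 was not detectable above the background of free RNA in DMSO arterial cells. Igfbp7, an IGF-binding protein of the vessel wall, was at 103 and 160 against 1691 and 1606 in capillary cells, Nrp2, a coreceptor for VEGF-C and semaphorins, at 26.5 and 37.4 against 401 and 441, and the HDL receptor gene Scarb1 at 35.7 and 49.1 against 303 and 281. Ctla2a, a cysteine protease inhibitor, was at 38.7 and 34.2 in arterial cells against 1238 and 375 in capillary and 1204 and 390 in venous cells. Fmo2, Akap12, Lrmda, Dnm3 and Xdh completed the 10 lowest genes, with arterial levels between 21.4 and 354.

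Of 18 adhesion and chemokine genes read, 2 (Cxcl2 and Cx3cl1) were 2-fold higher than in both other classes, beside 3.19% of all genes. Vcam1, the ligand of leukocyte integrin VLA-4, stood at 2386 in DMSO and 2214 in MVC arterial cells, above 1264 and 1657 in venous and far above 48.0 and 120 in capillary cells. Sele, E-selectin, was at 12.2 and 75.9 in arterial cells against 2165 and 2236 in venous cells. The neutrophil chemokine Cxcl2 was at 1114 and 655 in arterial, 275 and 239 in capillary and 77.9 and 84.3 in venous cells, although 1 cell held 27.4% of the DMSO and 28.5% of the MVC UMIs. The fractalkine gene Cx3cl1 was at 194 and 166 against at most 40.2 elsewhere, while Cxcl12, the ligand of Cxcr4, was at 133 and 134 in arterial against 910 and 939 in capillary cells.

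Arterial cells were divided by how many of the 5 capillary genes they held, a count that the rule used and that therefore orders them without testing anything: 45 DMSO and 42 MVC cells held 0, 65 and 39 held 1, and 36 and 49 held 2 or more. Median depth was 6595 and 6014.5 UMIs in cells with 0, and 6921.5 and 7370 in cells with 2 or more. Mgp stood at 13986 and 7612 in cells with 0 capillary genes and at 4050 and 3676 in cells with 2 or more. Vcam1 stood at 4834 and 3260 with 0 and at 750.5 and 1220 with 2 or more, and Gja4 at 252 and 318 with 0 and at 106 and 105 with 2 or more. Ptgs2, the inducible cyclooxygenase of prostanoid synthesis, was at 686 and 509 with 0 capillary genes and at 0 and 25.6 with 2 or more, and the cystine transporter Slc7a11 at 249 and 213 against 11.3 and 12.8. A Ptgs2 UMI was found in 18 DMSO and 12 MVC arterial cells, so that this gene rests on few cells.

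Other genes were higher in cells with 2 or more. Cxcl12 was at 27.3 and 52.4 in cells with 0 capillary genes and at 166 and 235 in cells with 2 or more. Gja1, which encodes connexin 43, was at 119 and 127 with 0 and at 464 and 432 with 2 or more, and the Notch target Hes1 at 58.0 and 86.1 with 0 and at 204 and 343 with 2 or more. The growth hormone receptor gene Ghr was at 147 and 161 against 532 and 466, and Pparg, a regulator of lipid uptake, at 58.0 and 18.7 against 200 and 169. These genes were picked for differing in both libraries, so the direction they share is fixed by that choice.

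**Figure D2:**
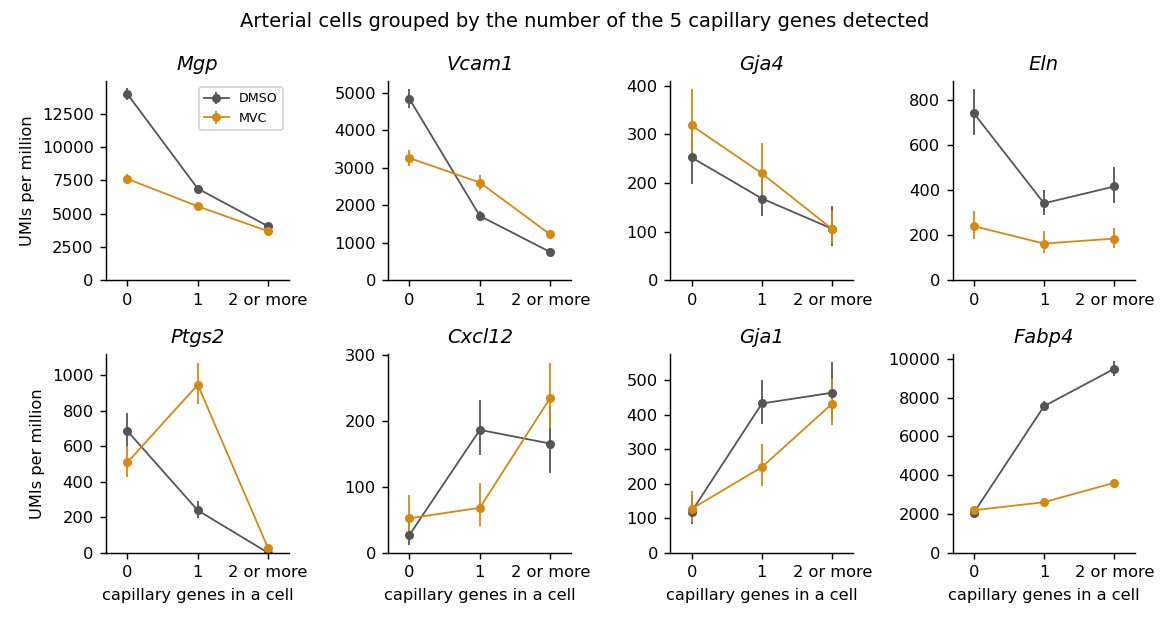
Levels of 8 genes, as CPM, in arterial cells with 0, 1 or 2 or more of the 5 capillary genes, DMSO in grey and MVC in orange, with exact 95% Poisson intervals for counting error. Mgp, Vcam1 and Gja4 were lower and Cxcl12 and Gja1 higher in cells with 2 or more than with 0, a direction that the choice of genes fixes.

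The abundance of arterial cells was set side by side first. Arterial cells made up 2.69% of kept cells in DMSO (95% exact binomial interval 2.27 to 3.15) and 2.38% in MVC (1.995 to 2.82), a difference of -0.302 percentage points (Newcombe interval -0.897 to 0.291). Of endothelial cells they made up 6.14% and 5.83% (difference -0.313 points, -1.69 to 1.07), and of cells given 1 of the 3 classes 6.62% and 6.89% (difference 0.265 points, -1.27 to 1.83). A difference in share was not detectable at these cell numbers. Endothelial cells of no class numbered 172 in DMSO and 342 in MVC, and the latter had a median depth of 1691 UMIs.

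RNA of other cell types differed between the arterial cells of the libraries, and beyond leaving such cells out its part in the results below was not tested. Pericyte markers (7 genes) summed to 20 UMIs in DMSO and 255 in MVC arterial cells. The 3 richest MVC cells held 56.5% of these, and Higd1b was at 0 in DMSO. Smooth muscle markers (8 genes, with Cnn1 and Actg2 at 0 in both) summed to 159 and 389 UMIs, and 3 MVC cells held 76.1%. Markers of fibro-adipogenic progenitors (FAPs, the stromal cells of muscle, 8 genes with 0 of them at 0) summed to 610 UMIs in DMSO, 421 of them in 1 cell, and to 258 in MVC. Blood markers (9 genes) summed to 37 and 117 UMIs, 102 of the latter in 1 cell, and Schwann markers (3 genes) to 0 and 34, 32 of them in 1 cell. Red cell (4 and 9 UMIs), myofibre (7 and 27), lymphatic (33 and 9) and satellite cell markers (1 and 0) gave few UMIs.

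**Figure D3:**
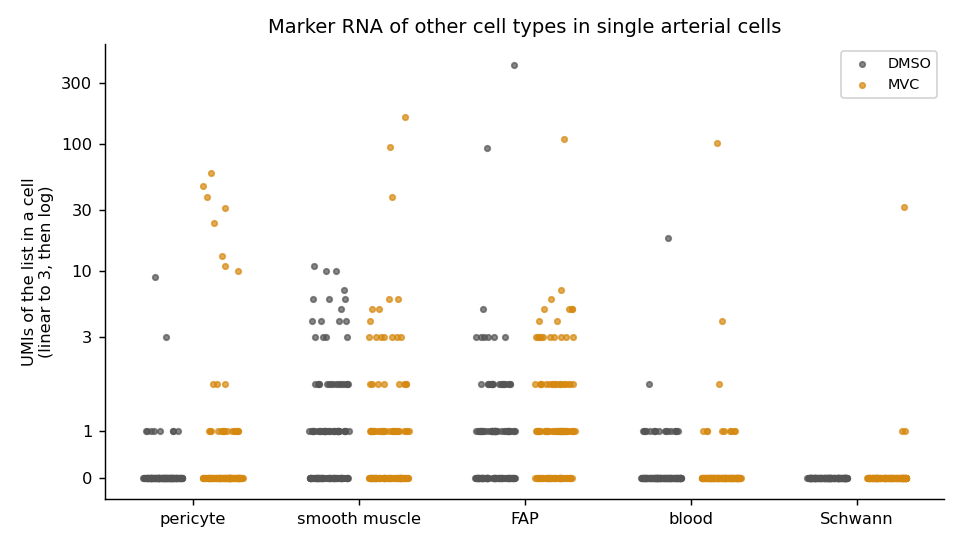
Summed UMIs of 5 marker lists of other cell types in each arterial cell (points), DMSO in grey and MVC in orange, on an axis that is linear to 3 and logarithmic above. Most cells held 0 to 3 UMIs, while 1 DMSO cell held 421 UMIs of the FAP list and a few MVC cells held most pericyte and smooth muscle UMIs.

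Comparing MVC with DMSO, 81 of the 4915 genes read in arterial cells (1.65%) were at least 2-fold higher and 27 (0.549%) at least 2-fold lower. When the 1 cell with most UMIs of a gene was left out of each library, 59 and 18 of them stayed past 2-fold. The median log2 ratio over all genes read was 0.03, with 2662 genes higher and 2253 lower. The 12 highest ratios under the naming rule belonged to Rgs5, Myh11, Ctnna3, Lyz2, Cacnb2, Gm16685, Tppp3, Sele, Pde3a, Acta2, Slc7a7 and Plekha6, and the 12 lowest to Apod, Ptx3, Prg4, Ccl7, Dcn, Ccl2, Bc1, Igfbp4, Rps27rt, Cd44, Anpep and Thbs4.

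Of the 12 highest, several lay in few cells. Rgs5, a pericyte gene, had 7 UMIs in 1 DMSO cell and 168 UMIs in 17 MVC cells. Myh11, smooth muscle myosin, had 1 UMI and 59 UMIs, the latter in 5 cells, and Acta2, smooth muscle actin, 25 UMIs in 9 cells and 109 in 10 cells. Without the 8 DMSO and 12 MVC members that held at least 3 UMIs of Acta2, Tagln, Myh11 and Rgs5, the log2 ratio of Acta2 was -0.08, of the phosphodiesterase gene Pde3a -0.73, of Myh11 0.16 and of Rgs5 1.13. Of the 50 Lyz2 UMIs (a lysozyme of myeloid cells) in MVC, 98.0% lay in 1 cell, and of the 71 Sele UMIs 63.4%. Ctnna3, an alpha catenin, was in 2 DMSO and 10 MVC cells, and the calcium channel subunit gene Cacnb2 in 1 and 8 cells. The richest MVC cell held 30.8% of the Ctnna3 and 41.7% of the Cacnb2 UMIs.

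Tppp3 and Gm16685 were spread more widely. Tppp3, a tubulin polymerisation-promoting protein, had 19 UMIs in 16 of 146 DMSO cells and 111 UMIs in 52 of 130 MVC cells, 19.4 and 119 CPM (ratio 6.12, 95% counting interval 3.74 to 10.6). In capillary cells its levels were 30.5 and 40.7 and in venous cells 3.51 and 6.86. The long noncoding RNA Gm16685 (chromosome 3, 7612705 to 7690001, plus strand, mm10) had 35 UMIs in 15 cells and 198 UMIs in 26 cells, 35.7 and 212 CPM (ratio 5.93, 4.12 to 8.76), and its ratio was 2.21 in capillary and 5.65 in venous cells. Slc7a7, a light chain of amino acid transport, was in 12 and 24 cells (13.2 and 70.5 CPM), and Plekha6 in 7 and 19 cells (8.15 and 48.1 CPM). These 2 were less evenly spread, since the richest MVC cell held 36.4% of the Slc7a7 and 24.4% of the Plekha6 UMIs. With the mural cells left out, the log2 ratios of Tppp3, Gm16685, Slc7a7 and Plekha6 were 2.11, 2.22, 1.91 and 1.74. With every cell thinned to 2000 UMIs and the rule applied anew, 99 DMSO and 88 MVC arterial cells were left. In these the log2 ratios were 1.34, 1.45, 2.32 and 0.32, so that Plekha6 was no longer past 2-fold.

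**Figure D4:**
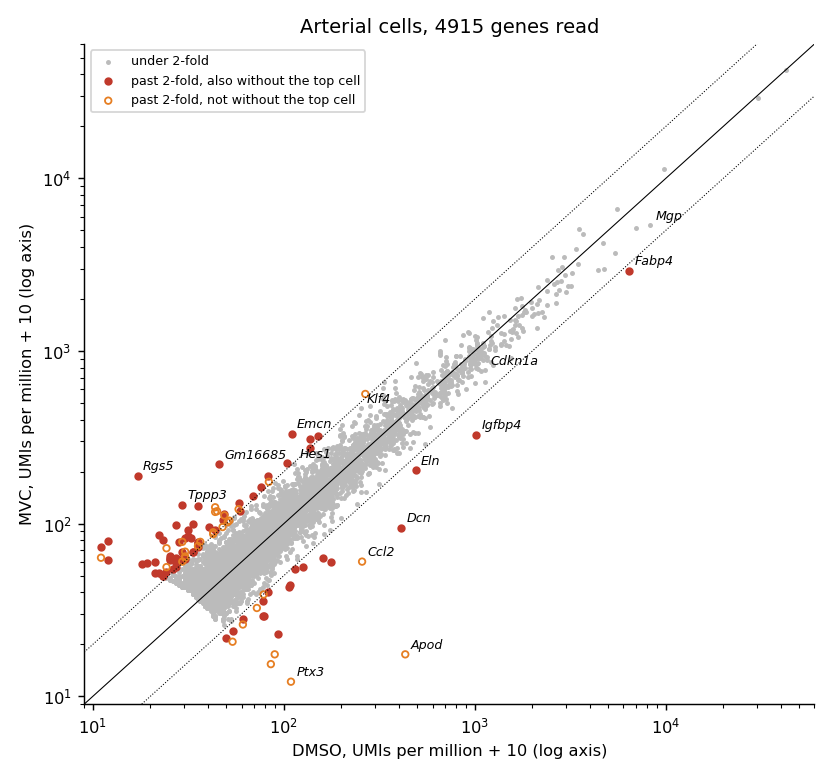
Levels of the 4915 genes read in arterial cells, DMSO against MVC, as CPM plus 10 on log axes, with dotted lines at 2-fold. Genes past 2-fold are filled red where they stayed so without the cell richest in the gene and open orange where they did not, such as Apod and Ptx3. Igfbp4, Eln and Fabp4 lie below the band.

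Of the 12 lowest, several rested on 1 cell. In DMSO 1 cell held 98.8% of the 414 Apod UMIs, 95.9% of the 97 Ptx3 UMIs, 95.9% of the 74 Prg4 UMIs, 97.4% of the 78 Ccl7 UMIs and 96.3% of the 242 Ccl2 UMIs. The share was 81.4% of 43 UMIs for Thbs4 and 66.6% of 395 UMIs for Dcn. Without the richest cell of each gene the log2 ratio was 0.02 for Apod, 0.13 for Prg4, 0.35 for the chemokine gene Ccl7, 0.55 for the chemokine gene Ccl2, 0.11 for Thbs4, -0.35 for Ptx3 and -1.54 for Dcn. Apod and Dcn are genes of stromal cells, and the cell with 421 UMIs of the FAP list was in the same library.

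Among the 12 lowest, Igfbp4 had the most UMIs and was found in the most cells. Igfbp4, an IGF-binding protein (chromosome 11, 99041244 to 99054392, plus strand, mm10), had 985 UMIs in DMSO and 297 in MVC arterial cells, 1004 and 317 CPM (ratio 0.316, 0.277 to 0.360). UMIs of it were seen in 130 of 146 cells (89.0%) and in 89 of 130 cells (68.5%), and with every cell thinned to 2000 UMIs in 70.0% (61.7 to 77.4) and 40.8% (32.1 to 49.9). The median cell held 7.45 Igfbp4 UMIs per 10000 in DMSO and 2.03 in MVC. Its level was 1566 and 412 CPM in cells with 0 capillary genes, 775 and 281 with 1, and 747 and 279 with 2 or more. That grouping uses a count of the rule within the same libraries, so it describes the members only. In capillary cells Igfbp4 was at 57.6 and 55.3 and in venous cells at 90.6 and 137. B cells, thinned alike, held an Igfbp4 UMI in 0.980% of 102 DMSO and 5.13% of 39 MVC cells.

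Bc1, a short noncoding RNA, was at 83.6 and 12.8 (ratio 0.153) in arterial cells, with ratios of 0.305 in capillary and 0.293 in venous cells, and Rps27rt, a retrogene copy of a ribosomal protein gene, at 167 and 50.2 (ratio 0.300), with 0.352 and 0.230. Both were lower in all 3 classes. Both resemble other genomic copies, so that their levels are uncertain, and the mapping of reads was not examined. Anpep, aminopeptidase N, was in 35 DMSO and 15 MVC cells (67.3 and 19.2 CPM), and the hyaluronan receptor gene Cd44 in 10 and 7 cells (68.3 and 19.2 CPM), with 47.8% of the DMSO Cd44 UMIs in 1 cell. The log2 ratio of Cd44 went from -1.42 to -0.51 when the called doublets were removed, which ended its place past 2-fold, and to -0.645 without members rich in stromal or blood RNA.

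Cdkn1a, which encodes the cell cycle inhibitor p21, is a marker of senescence that the study followed in endothelial cells. It had 1098 UMIs in DMSO and 714 in MVC arterial cells, 1119 and 763 CPM (ratio 0.682, 0.620 to 0.750, log2 difference -0.55), in 121 of 146 and 103 of 130 cells. In capillary cells it was at 1340 and 822 (ratio 0.613) and in venous cells at 840 and 436 (ratio 0.519). The share of arterial cells with a Cdkn1a UMI was 82.9% (75.8 to 88.6) and 79.2% (71.2 to 85.8), and at 2000 UMIs per cell 67.1% (58.7 to 74.8, 6 cells left out) and 64.0% (54.9 to 72.4, 5 left out). At that depth the shares in capillary cells were 81.0% and 59.4%, in venous cells 65.0% and 42.9%, and in B cells, the background, 1.96% and 5.13%. The arterial level was thus lower in MVC, while the counting intervals of the 2 arterial shares overlapped. The median arterial cell held 8.45 Cdkn1a UMIs per 10000 in DMSO and 5.22 in MVC.

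Cdkn1a is also given by the number of capillary genes, which the rule used and which moved with depth. Among cells with 0 capillary genes its level was 774 in DMSO (677 to 882) and 748 in MVC (648 to 860). With 1 capillary gene it was 1118 and 867, and with 2 or more 1501 (1357 to 1656) and 698 (618 to 786). These values are a description of the members and support no difference between the strata.

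Of 7 CDK inhibitor genes 4 were read in arterial cells. Cdkn2d, the p19 inhibitor, was at 78.5 and 41.7 (ratio 0.531), Cdkn1b, p27, at 45.9 and 50.2, and Cdkn1c, p57, at 27.5 and 62.0 (ratio 2.25, with 2.13 in capillary and 3.18 in venous cells). Cdkn2a, the source of p16, had 2 UMIs in DMSO and 0 in MVC, too few for a fold. Of 8 p53 target genes read, 4 were higher and 4 lower in MVC, 0 past 2-fold. The stress cytokine gene Gdf15 was at 190 and 97.2 in arterial cells (ratio 0.513, in 22 and 11 cells), 178 and 47.5 in capillary cells and 16.1 and 0 in venous cells. Of 27 genes read from the classical senescence secretome list of the study, 12 were higher and 15 lower. The 2 past 2-fold, both lower, were Igfbp4 and Ccl2, beside 0.549% of all genes read. Of the Ccl2 UMIs in DMSO 96.3% lay in 1 cell, and its log2 ratio was 0.55 without the richest cells. The median log2 ratio of the 27 genes was -0.16, and -0.01 without the richest cells, beside 0.03 for all genes read. The list was put together in the same study and is no independent evidence.

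Matrix genes showed no common direction, and elastin was the member past 2-fold lower. Of 24 matrix genes 10 were higher and 14 lower, with a median log2 ratio of -0.09. Past 2-fold was 1 each way, beside 1.65% of all genes higher and 0.549% lower. Eln had 471 UMIs in 97 DMSO cells and 181 UMIs in 71 MVC cells, 480 and 193 CPM (ratio 0.403, 0.338 to 0.479). Its level was 740 and 240 in cells with 0 capillary genes, 340 and 162 with 1, and 415 and 184 with 2 or more. These groups come from the same libraries and a count of the rule, and only describe the members. Emilin1, an elastin interface protein, was at 66.2 and 31.0, Fbln5 at 356 and 278, and Mgp at 8239 and 5357 (ratio 0.650), while Fbln2 was at 504 and 734 and the fibrillin gene Fbn1 at 83.6 and 122. Ltbp1, the latent TGF-beta binding protein past 2-fold higher, was at 18.3 and 68.4 in 12 and 31 cells, and the laminin chain gene Lama4 at 273 and 471.

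Of 22 genes read from the vasoactive and shear list 14 were higher and 8 lower in MVC. Over all genes 2662 of 4915 were higher. The median log2 ratio of the list was 0.23, and -0.15 in thinned cells over the list genes still read there. Klf2, a transcription factor that laminar flow induces, stood at 372 in DMSO and 662 in MVC arterial cells (ratio 1.78, 1.56 to 2.03) and Klf4, its close relative, at 243 and 457 (ratio 1.89, 1.61 to 2.22). In cells with 0 capillary genes Klf2 was at 341 and 322, with 1 at 232 and 586 and with 2 or more at 630 and 949. The thrombomodulin gene Thbd, an anticoagulant receptor, was at 131 and 199, while Nos3 was at 447 and 321 (ratio 0.716) and Ece1, the endothelin-converting enzyme, at 985 and 639 (ratio 0.648). The 2 of the list past 2-fold higher, beside 1.65% of all genes, were Pde3a and the adrenomedullin receptor gene Calcrl (33.6 and 114 CPM), of which 1 MVC cell held 43.9%. Of the Pde3a UMIs in MVC 37.8% lay in 1 cell, and its log2 ratio turned negative without the members rich in mural RNA.

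Of 11 Notch genes read 9 were higher in MVC, beside 2662 of 4915 genes in all, and 1 was past 2-fold, beside 1.65% of all genes. Their median log2 ratio was 0.33, against -0.17 in capillary and 0.18 in venous cells for the same genes. In thinned cells the arterial median was 0.12 over the Notch genes still read there. Among ligands Jag1 was at 119 and 167, Jag2 at 58.1 and 96.2 and Dll4 at 69.3 and 83.3, while the receptor Notch1 was at 412 and 318. Among targets Hes1 was at 103 and 213 (ratio 2.07, 1.62 to 2.65; log2 difference 0.98), Hey1 at 32.6 and 64.1 (ratio 1.97), and Hey2 at 13.2 and 40.6, 13 UMIs in 9 cells and 38 UMIs in 23 cells, the 1 Notch gene past 2-fold. Of 19 endothelial transcription factors read, 15 were higher and 4 lower with a median of 0.21. Tcf15 was the only member past 2-fold, beside 1.65% of all genes. Sox17 was at 186 and 266 (ratio 1.43) and Gata2 at 65.2 and 106. Tcf15, a factor of capillary fatty acid uptake, was at 38.7 and 101 (ratio 2.62) in 30 and 42 cells. In cells with 0 capillary genes Tcf15 was at 13.6 and 11.2, with 1 at 30.7 and 57.6, and with 2 or more at 79.2 and 194.

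Interferon-induced genes were higher in 20 of 25 read, 3 past 2-fold (Gbp7, Xaf1 and Rtp4), with a median log2 ratio of 0.25, 0.48 in capillary and 0.36 in venous cells. Over all genes 2662 of 4915 were higher and 1.65% past 2-fold higher. With every cell thinned to 2000 UMIs the median was -0.10 over the list genes still read there, which may be fewer than the 25. The ubiquitin-like modifier Isg15 stood at 107 and 198 (ratio 1.85), the GTPase genes Gbp2 at 218 and 359 and Gbp7 at 38.7 and 104, while Irf1 was at 447 and 438. An Isg15 UMI was seen in 43.2% of DMSO and 40.0% of MVC arterial cells, and in 0.980% and 15.4% of B cells, and 1 MVC arterial cell held 14.1% of its UMIs. Of 38 immediate early and heat shock genes 26 were higher, 1 of them past 2-fold, with a median of 0.12. That gene was the orphan receptor Nr4a1 (127 and 299 CPM), and Fos was at 687 and 1154 and the inducible chaperone Hspa1a at 3504 and 5085. Such genes are known to respond to tissue digestion as well as to signals in the animal, and the part of handling was not tested.

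Among genes of lipid handling Fabp4 stood out by its level. Fabp4, a fatty acid-binding protein of microvessels, stood at 6435 in DMSO and 2908 in MVC arterial cells (ratio 0.452, 0.432 to 0.473), 12774 and 7226 in capillary cells and 8234 and 7332 in venous cells. In single cells the median was 52.9 Fabp4 UMIs per 10000 UMIs in DMSO and 25.4 in MVC. In arterial cells with 0 capillary genes its level was 2054 and 2193, with 1 it was 7558 and 2608, and with 2 or more 9489 and 3610. Over the 9 genes read of the fatty acid uptake list 5 were higher and 4 lower, 1 past 2-fold each way (Tcf15 and Fabp4). Of all genes read 1.65% were past 2-fold higher and 0.549% lower.

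Adhesion and chemokine genes showed no common direction, with 9 of 18 read higher and 9 lower and a median log2 ratio of -0.05. Sele was past 2-fold higher and Ccl2 and Ccl7 past 2-fold lower, beside 1.65% and 0.549% of all genes read. Each was held mostly by few cells, as described above. Vcam1 was at 2386 and 2214 (ratio 0.928) and Icam1 at 1740 and 2028 (ratio 1.17), while the neutrophil chemokines Cxcl1 and Cxcl2 stood at 644 and 957 and at 1114 and 655, each with more than 20% of UMIs in 1 cell in both libraries. Outside this list and the ranked genes, the sialomucin gene Emcn was at 99.9 and 322 CPM in 43 and 54 cells. Its level was 109 and 116 in cells with 0 capillary genes, 75.6 and 349 with 1, and 128 and 443 with 2 or more.

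The remaining lists are given beside a median log2 ratio of 0.03 over all genes read. Of all genes read 1.65% were past 2-fold higher and 0.549% lower. Junction and connexin genes gave 7 higher and 7 lower of 14 read (median -0.01), VEGF and angiopoietin genes 10 and 5 of 15 (0.04), and TGF-beta and BMP genes 11 and 8 of 19 (0.01). Clock genes gave 5 and 5 of 10 (0.12), glucocorticoid-induced genes 9 and 5 of 14 (0.14), ATF4 target genes 3 and 5 of 8 (-0.10), and antigen presentation genes 6 and 9 of 15 (-0.02). Past 2-fold among these were Tgfb2 and Tmem100 of the TGF-beta list and Nupr1 of the ATF4 list, all higher in MVC. The tight junction gene Cldn5 was at 950 and 702 in arterial cells (ratio 0.739) and at 1465 and 823 in capillary cells. Arterial genes outside the rule gave 6 higher and 3 lower of 9 read (median 0.24), and venous ones 2 and 2 of 4 (0.06), with 0 past 2-fold in either list. Of 4 capillary genes outside the rule 3 were higher and 1 lower (0.69), with Aqp1 and Tcf15 past 2-fold higher and Fabp4 past 2-fold lower.

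Side by side with the other endothelial classes, which come from the same libraries, the ratios of MVC over DMSO parted for some genes and not for others. Cdkn1a (0.682, 0.613 and 0.519 in arterial, capillary and venous cells) and Gm16685 (5.93, 2.21 and 5.65) went the same way in all 3. Eln went from 480 to 193 in arterial cells (0.403) and from 27.4 to 50 in capillary cells (1.82), with 1.38 in venous cells. Klf4 was at 1.89 in arterial, 0.760 in capillary and 0.782 in venous cells, and Hes1 at 2.07, 0.718 and 0.793. Ctla2a, at 0.303 in capillary and 0.324 in venous cells, was at 0.883 in arterial cells (0.534 to 1.45), where its level was low in both libraries. Differences between the classes were not tested, since each rests on 1 library per group.

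**Figure D5:**
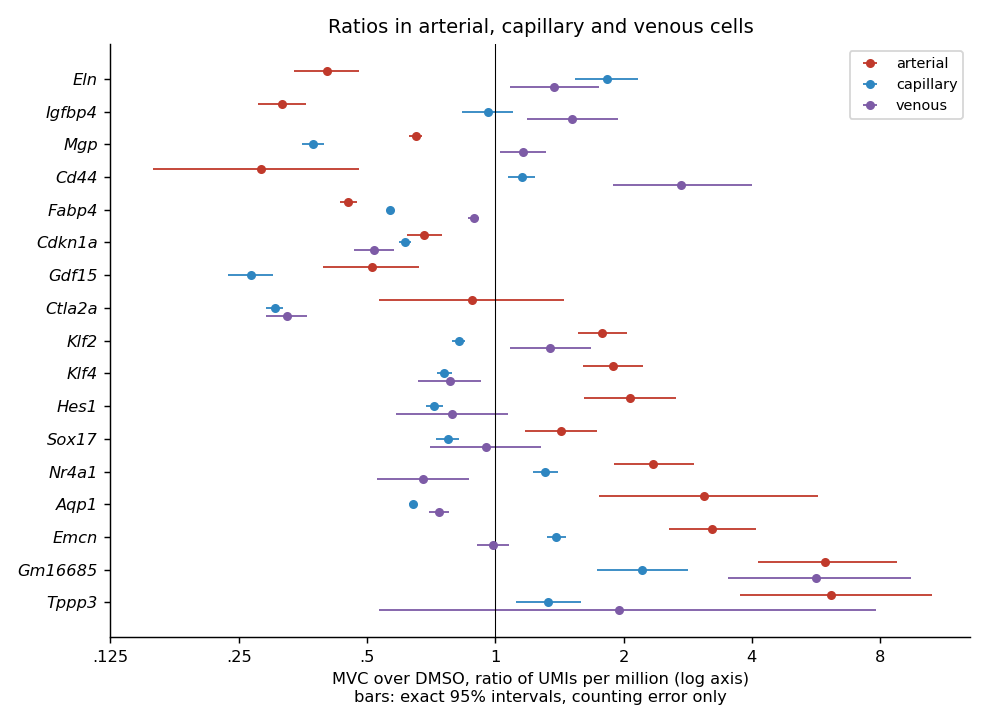
Ratio of MVC over DMSO levels for 17 genes in arterial (red), capillary (blue) and venous (violet) cells, on a log axis, with exact 95% intervals for counting error. Cdkn1a and Gm16685 lay on the same side of 1 in all 3 classes, while Eln lay below 1 in arterial cells only and Klf4 and Hes1 above 1 in arterial cells only.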

How the data were processed

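Count matrices for 2 droplet libraries of muscle mononuclear cells were analysed, 1 from DMSO-treated and 1 from MVC-treated mice. The deposited values are raw UMI counts per gene and barcode, made by the authors with Cell Ranger 7.0.0 on mm10. Seurat 5.0.1 also appears in the submitters' processing notes. Neither the annotation release nor whether introns were counted is given in the sources used here. The study's own cell filter (500 genes, 10% mitochondrial) was applied, and cells were then classed by the rule above. The members, gene lists and tests were chosen with earlier results of these data known.

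UMIs were summed per class and library and divided by the class total to give CPM, and log2 differences were taken on log2(CPM + 10). Genes with fewer than 50 UMIs in the arterial cells were left out of counts, and 2-fold was the threshold for a count. Plain ratios carry no pseudocount. Intervals are exact Poisson, Clopper-Pearson or conditional binomial at 95%, and Newcombe for differences of shares. Total UMIs were 39150511 in DMSO and 36063575 in MVC. Doublets were simulated, scored among 50 nearest neighbours and called at 0.8% per 1000 cells, and doublets were kept. For shares of cells with a UMI each cell was thinned to 2000 UMIs and kept its class. In the alternative with thinned cells the rule and the minimum of 50 UMIs were instead applied anew to the thinned counts. Named genes were, by rule, the 15 highest and 10 lowest genes against both other classes, the 12 highest and 12 lowest MVC over DMSO (without mitochondrial, haemoglobin, immunoglobulin, sex-linked and rule genes), and genes of the lists. Genes described for the division of arterial cells by capillary genes were chosen after their values were seen, and Emcn was taken up outside the naming rule. Of 32285 gene IDs 32158 had a position in GENCODE M21, and promoter sequences came from RefSeq (GRCm38.p6). Python 3.11.15, numpy 2.4.6, scipy 1.17.1, pandas 2.3.3, scikit-learn 1.9.0 and matplotlib 3.10.9 were used, and the level and ratio scripts were tested on simulated counts. The senescence secretome list came from a supplement of the study. Alternatives were a stricter cell filter, removal of doublets or of members with mural RNA, a rule of at least 3 arterial genes, thinned cells, another scaling, another pseudocount and other UMI minimums.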

Additional observations from a re-analysis of the deposited data

Results flagged for a closer look

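For 17 genes among the named genes and lists, the ratio of MVC over DMSO lay on opposite sides of 1 in arterial cells and in capillary or venous cells, with neither counting interval reaching 1, and the arterial ratio passed 1.5-fold with and without the richest cell. Some of the named genes had been chosen for an extreme arterial ratio. The share of all genes read that meets the same condition is not given here, so the 17 have no background to be set against. The difference between the classes was not tested, because each group held 1 library. Among genes higher in MVC arterial cells, the arterial ratio was 1.93 for Fabp5 against 0.850 in capillary cells, 1.96 for Nr4a3 against 0.722 in venous cells, 1.89 for Klf4 against 0.760 in capillary cells and 0.782 in venous cells, 3.08 for Aqp1 against 0.641 in capillary cells and 0.738 in venous cells, 2.51 for Nupr1 against 0.330 in venous cells. The arterial ratio was also 1.78 for Klf2 against 0.820 in capillary cells, 1.51 for Klf6 against 0.883 in capillary cells, 1.53 for Plk2 against 0.925 in capillary cells, 2.35 for Nr4a1 against 0.677 in venous cells, 2.07 for Hes1 against 0.718 in capillary cells. Among genes lower in MVC arterial cells, the arterial ratio was 0.282 for Cd44 against 1.15 in capillary cells and 2.73 in venous cells, 0.468 for Emilin1 against 1.46 in capillary cells, 0.403 for Eln against 1.82 in capillary cells and 1.38 in venous cells, 0.650 for Mgp against 1.16 in venous cells, 0.316 for Igfbp4 against 1.51 in venous cells. It was 25.2 for Rgs5 against 0.266 in venous cells, and 0.210 for Dcn against 2.82 in capillary cells and 4.69 in venous cells, and both genes mark other cell types, mural and stromal, whose RNA was unevenly spread over the arterial cells. The log2 ratio of Cd44 was -0.51 without the called doublets, against -1.42 with them. Aqp1 in DMSO arterial cells was at the share of cells found in B cells, so its ratio rests on a level near the background. The number of arterial cells with 2 or more capillary genes differed between the libraries too, 36 of 146 in DMSO and 49 of 130 in MVC, and its part in these ratios was not tested.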

How the results depend on the processing

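No paired analysis was possible because each group held 1 library, and for the same reason no replicate could be left out. Removing members rich in stromal and blood RNA and leaving out the richest cell of each gene were chosen after seeing the data. The difference in arterial share (-0.302 points) ranged down to -0.046 under the stricter cell filter and -0.017 after thinning. The median of the capillary genes was 0.16 without doublets. Thinned to 2000 UMIs per cell (1394 genes read), the log2 ratio of Cdkn1a was -0.36, 26 genes were past 2-fold higher and 12 lower in MVC, 70 were past 2-fold over and 9 under both other classes, and list medians were -0.97 (capillary), -0.15 (vasoactive), -0.50 (ATF4), -0.48 (fatty acid uptake), -0.10 (interferon) and 0.12 (Notch). Without mural RNA the capillary median was 0.032. A pseudocount of 1 gave 136 higher and 46 lower genes, a minimum of 20 UMIs 179 and 58 with 71 under both other classes, and a minimum of 100 UMIs 31 and 12 with 22 under both. Without stromal and blood RNA 17 genes were lower. List medians cover only the genes read under each setting, so the thinned medians and the main ones can rest on different genes. The genes left per list are not given here, and the cause of the thinned values was not tested. The thresholds on UMIs change the number of genes read.

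Of the 240 values recomputed for the named genes, 216 kept their direction. Log2 ratios changed sign without doublets for Apod (0.24), Prg4 (0.13), Ccl7 (0.46), Dcn (0.78), Ccl2 (1.56) and Thbs4 (0.57), without stromal and blood RNA for Apod (0.33), Prg4 (0.35), Ccl7 (0.55), Ccl2 (1.55) and Thbs4 (0.56), and without the richest cell for Apod (0.023), Prg4 (0.13), Ccl7 (0.35), Ccl2 (0.55) and Thbs4 (0.11). The same was seen after thinning for Apod (1.10), Prg4 (0.65) and Thbs4 (1.10), and without mural RNA for Lyz2 (-0.15), Pde3a (-0.73) and Acta2 (-0.078). With 276 cells, genes under 50 UMIs could not be read, and shares of cells carry intervals several percentage points wide.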
